A study of Homo sapiens with 9 samples.

Results

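The genes described here are 9 targets of KMT2A fusion proteins that lie outside the homeobox clusters: MEF2C, CDK6, JMJD1C, ZEB2, LMO2, MYB, RUNX2, MBNL1 and SATB1. They were taken by symbol from the gene table, which held 56541 genes with a row, and 9 of 9 were found. All 9 passed the filter on low counts in both comparisons. The study asked how loss of BCLAF1 changes the RNA of MOLM-13 cells and which RNAs are recovered with the BCLAF1 protein. MOLM-13 is an established human acute myeloid leukaemia line that carries a KMT2A::MLLT3 fusion and an activated FLT3. There were 9 libraries in 3 groups of 3. In the RNA-seq groups the cells carried either a non-targeting control hairpin (shCONTROL) or one directed at BCLAF1 mRNA (shBCLAF1). The third group, RIP (RNA immunoprecipitation), was RNA recovered with BCLAF1 from shCONTROL cells. Cells of all groups, controls included, were kept in 200 ng/µL doxycycline for 4 days before collection. Each RNA-seq library came from 2000000 cells and each RIP library from 15000000. The labels name no mock precipitation, so the RIP libraries were set against the shCONTROL RNA-seq libraries, which differ from them in preparation and in cell number. The labels do not say whether the replicates were separate cultures, and the p-values measure only the spread between these libraries. Levels from bulk RNA do not tell a change in RNA per cell from a change in the kinds of cells present.

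KMT2A is a histone methyltransferase that keeps developmental genes active. In leukaemia its N-terminal part is fused to a protein of the transcription elongation machinery, such as MLLT3, and the fusion protein, bound to chromatin together with menin, holds a set of progenitor genes in an active state. The homeobox genes of the HOXA cluster and MEIS1 are the best known of them, and the genes described here belong to the same programme outside that family. BCLAF1 is a nuclear protein rich in arginine and serine that associates with RNA and with splicing and mRNA-export factors.

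By role, MYB, RUNX2, MEF2C and ZEB2 encode transcription factors that bind DNA. LMO2 encodes an adaptor that joins such factors in a complex, and SATB1 encodes a protein that organises chromatin. JMJD1C encodes a member of the family of histone lysine demethylases with a JmjC domain. CDK6 encodes the kinase that drives cells out of G1 with D-type cyclins, and MBNL1 encodes a regulator of alternative splicing. On GRCh38.p14, RefSeq places MYB at chr6:135181308-135219172, RUNX2 at chr6:45328330-45551082, MEF2C at chr5:88717117-88904105 and ZEB2 at chr2:144384081-144520119. LMO2 is at chr11:33858576-33892076, SATB1 at chr3:18345377-18445592 and JMJD1C at chr10:63167225-63521890. CDK6 is at chr7:92604921-92836573 and MBNL1 at chr3:152243632-152465780. In the deposited table they are ENSG00000118513 (MYB), ENSG00000124813 (RUNX2), ENSG00000081189 (MEF2C), ENSG00000169554 (ZEB2), ENSG00000135363 (LMO2), ENSG00000182568 (SATB1), ENSG00000171988 (JMJD1C), ENSG00000105810 (CDK6) and ENSG00000152601 (MBNL1).

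Sequences upstream of the gene start are shown for the 5 members that fell after the knock-down, a choice made by that outcome. Binding of factors to these sequences was not measured. Each run is the 250 bases before the RefSeq gene start, 5′ to 3′ on the gene's own strand, on GRCh38.p14. Capitals mark matches, on either strand, to the motifs bound by factors among the members: TAACNG for MYB, TGTGGT for RUNX, CAGGTG for ZEB and, for MEF2, CTA and TAG with 4 free bases between them.
MEF2C: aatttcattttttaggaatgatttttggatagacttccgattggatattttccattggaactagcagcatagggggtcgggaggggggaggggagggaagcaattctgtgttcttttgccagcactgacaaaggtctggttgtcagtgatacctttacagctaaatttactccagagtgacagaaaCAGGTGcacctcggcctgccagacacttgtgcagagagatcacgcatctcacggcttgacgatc
SATB1: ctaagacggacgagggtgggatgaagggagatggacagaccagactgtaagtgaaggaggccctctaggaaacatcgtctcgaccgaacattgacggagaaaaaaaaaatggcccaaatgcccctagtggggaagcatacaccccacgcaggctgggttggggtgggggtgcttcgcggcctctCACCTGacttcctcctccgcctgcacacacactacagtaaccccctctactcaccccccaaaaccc
MYB: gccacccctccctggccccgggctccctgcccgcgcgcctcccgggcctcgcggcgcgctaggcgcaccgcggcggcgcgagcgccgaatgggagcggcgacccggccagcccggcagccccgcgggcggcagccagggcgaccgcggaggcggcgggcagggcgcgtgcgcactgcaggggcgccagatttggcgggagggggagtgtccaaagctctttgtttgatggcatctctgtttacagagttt
RUNX2: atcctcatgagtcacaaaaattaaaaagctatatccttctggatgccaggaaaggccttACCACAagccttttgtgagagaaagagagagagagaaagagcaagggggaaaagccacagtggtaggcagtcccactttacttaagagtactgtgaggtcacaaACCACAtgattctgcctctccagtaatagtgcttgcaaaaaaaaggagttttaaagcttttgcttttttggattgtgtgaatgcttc
CDK6: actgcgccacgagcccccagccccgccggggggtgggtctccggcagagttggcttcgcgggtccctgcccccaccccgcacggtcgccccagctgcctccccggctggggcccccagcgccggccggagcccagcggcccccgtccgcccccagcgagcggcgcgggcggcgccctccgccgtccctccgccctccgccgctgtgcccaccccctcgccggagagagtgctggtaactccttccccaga
These lie at chr5:88904106-88904355 on the minus strand (MEF2C), chr3:18445593-18445842 on the minus strand (SATB1), chr6:135181058-135181307 on the plus strand (MYB), chr6:45328080-45328329 on the plus strand (RUNX2) and chr7:92836574-92836823 on the minus strand (CDK6). The MEF2C and SATB1 runs each hold 1 match to the ZEB motif, the RUNX2 run holds 2 to the RUNX motif and the MYB and CDK6 runs hold none to the 4 motifs. RefSeq's promoter table gave 23 entries for 8 of the 9 members, each 300 bases long with the first 50 bases of the transcript, and listed none for LMO2. The 300-base entry at the RUNX2 start holds 4 RUNX matches, counting 2 in its last 50 bases. Of the 23 entries, 4 held the MYB motif, 0 the MEF2 motif, 3 the RUNX motif and 5 the ZEB motif. Among all 35116 entries of that length, 20.8% held the MYB motif, 2.73% the MEF2 motif, 13.1% the RUNX motif and 20.6% the ZEB motif. Several entries belong to 1 gene, so they are not independent, and a match is a description of letters only. MEF2C, SATB1, RUNX2 and CDK6 have entries at other starts too, and some of those differ in their matches from the runs shown. Which start MOLM-13 cells use was not tested.

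Levels are given as CPM, a count relative to the size of its library (per 1000000 counts) after TMM scaling over the 9 libraries, in the order of replicates 1, 2 and 3. No transcript lengths were used, so levels are compared between groups within a gene and never between genes. Libraries held 25819144 to 36635268 estimated counts assigned to genes, and 3 counts correspond to 0.0789 to 0.118 CPM. BCLAF1 stood at 325, 328 and 312 CPM in shCONTROL and at 115, 125 and 99.96 CPM in shBCLAF1, which is 35.2% of the control mean. In the RIP libraries BCLAF1 RNA stood at 1147, 1059 and 1034 CPM. Of 12 myeloid blast markers 11 were above 1 CPM in every group, and KIT was at 0. Summed, they reached 2414 to 2475 CPM in shCONTROL libraries, 4221 to 4661 CPM in shBCLAF1 libraries and 2055 to 2255 CPM in RIP libraries. Much of this was LYZ, the lysozyme gene, named here after its values were seen: without it the sums were 1685 to 1744, 1753 to 1843 and 2009 to 2195 CPM. Of the 11 blast markers tested in the knock-down, 4 rose, 1 fell and 6 did not pass the test. Over all genes tested, 15.5% rose and 16.9% fell. Of the markers of other lineages, CD3E, MS4A1, HBB, HBG1, PPBP, PF4, EPCAM, COL1A1, COL1A2 and CDH5 were at 0 in all groups. Their list, mostly PECAM1, summed to 197.5 to 209.6 CPM in shCONTROL libraries, 225 to 272 CPM in shBCLAF1 libraries and 433 to 679 CPM in RIP libraries.

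After knock-down of BCLAF1, 5 of the 9 members fell: SATB1, MEF2C, CDK6, RUNX2 and MYB. LMO2 rose, and JMJD1C, ZEB2 and MBNL1 did not pass the test (edgeR's quasi-likelihood test, Benjamini-Hochberg adjusted p under 0.05 over all genes tested). Of the 16961 genes tested, 16.9% fell and 15.5% rose. The members' median log2 fold change was -0.25, beside 0.02 over all genes tested, and their values ran from -0.66 for SATB1 to 0.95 for LMO2. The falls were all smaller than 1 on the log2 scale. In one fit of all 9 libraries, in which the more variable RIP libraries enter the spread, CDK6 (adjusted p = 0.0749), MYB (0.155) and RUNX2 (0.159) lost the call. A list of 12 maturation markers of monocytes and granulocytes was chosen with earlier results of these data known. Of its 10 tested genes 8 rose and 0 were called lower. ITGAM (log2 fold change 0.56, adjusted p = 0.119) and CSF1R (-0.47, adjusted p = 0.122) did not pass the test. For CSF1R every shBCLAF1 library was nevertheless below every shCONTROL library. The summed level of the list went from 784 to 901 CPM in shCONTROL to 2743 to 3152 CPM in shBCLAF1, with CD14 and FCGR3B at 0. LYZ again made up most of the sum, which without it was 113 to 117 CPM in shCONTROL and 307 to 333 CPM in shBCLAF1, and LYZ, CSF1R and ITGAM stand in the list of blast markers too. The part of the maturation list in the members' changes was not tested.

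**Figure D1:**
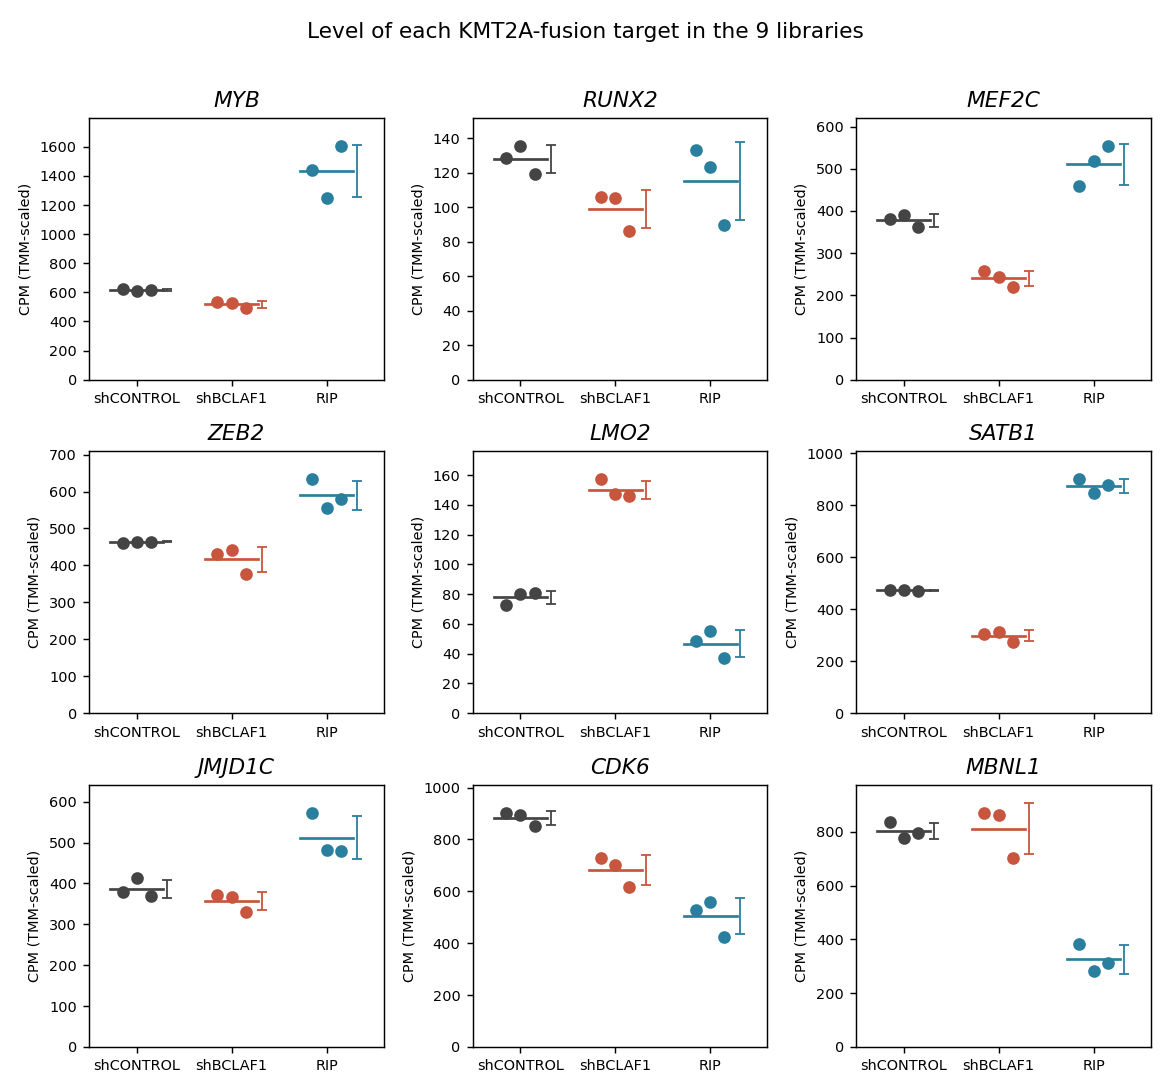
Level of each member in CPM (y axis, from 0, a scale of its own in each panel) by group, with 1 point per library (replicates 1 to 3 from left to right), a line at the mean and a bar of 1 SD on each side. The groups do not overlap in the panels of MYB, MEF2C, ZEB2, LMO2, SATB1 and CDK6; LMO2 is the panel in which shBCLAF1 lies at 146 to 157 CPM, above shCONTROL at 73.0 to 80.9.

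Among the DNA-binding factors, MEF2C, which myeloid and lymphoid progenitors use and which is linked to high-risk leukaemia, stood at 381, 391 and 362 CPM in shCONTROL and at 257, 243 and 220 CPM in shBCLAF1. Every shBCLAF1 library was below every shCONTROL library. The means were 378 ± 15.2 and 240 ± 18.3 CPM (SD, n = 3), a log2 fold change of -0.65 (SE 0.0655, 95% interval -0.81 to -0.49, adjusted p = 9.77e-04). MYB, the factor that sustains proliferation of haematopoietic progenitors, stood at 622, 608 and 618 CPM in shCONTROL and at 534, 527 and 493 CPM in shBCLAF1. The groups did not overlap, but the difference was small, at 84.1% of the control mean (log2 fold change -0.25, SE 0.0417, 95% interval -0.35 to -0.14, adjusted p = 0.00625).

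RUNX2, a Runt-domain factor best known from bone and also active in early myeloid and dendritic precursors, stood at 129, 136 and 119 CPM in shCONTROL. In shBCLAF1 it was at 106, 105 and 86.3 CPM, all below the lowest control. Its log2 fold change was -0.36 (SE 0.0946, 95% interval -0.59 to -0.13, adjusted p = 0.0299). This call did not survive leaving out shCONTROL replicate 1 (adjusted p = 0.0857), shCONTROL replicate 2 (0.0915) or shBCLAF1 replicate 2 (0.0507). ZEB2, a zinc-finger repressor needed for myeloid differentiation, stood at 462, 465 and 465 CPM in shCONTROL and at 430, 443 and 377 CPM in shBCLAF1. The shBCLAF1 libraries were all lower, yet they spread more than the gap between the groups, and the log2 fold change of -0.15 (95% interval -0.31 to 0.01) did not pass the test (adjusted p = 0.131; with DESeq2's Wald test, 0.0482).

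SATB1, which folds chromatin into loops and is best known from T cells, fell by about as much as MEF2C, the values differing by less than either SE. It stood at 476, 473 and 469 CPM in shCONTROL, a spread of 3.32 CPM (SD, n = 3), and at 307, 312 and 274 CPM in shBCLAF1. The log2 fold change was -0.66 (SE 0.0571, 95% interval -0.80 to -0.52, adjusted p = 5.96e-04), or 63.0% of the control mean. LMO2, the LIM-domain adaptor that links TAL1 or LYL1 to GATA factors, was the 1 member that rose. It stood at 73.0, 79.8 and 80.9 CPM in shCONTROL and at 157, 147 and 146 CPM in shBCLAF1, 193% of the control mean. Its log2 fold change of 0.95 (SE 0.0567, 95% interval 0.81 to 1.09, adjusted p = 2.35e-04) was exceeded by 3.95% of the genes tested.

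CDK6 stood at 902, 894 and 851 CPM in shCONTROL and at 727, 702 and 618 CPM in shBCLAF1. The groups did not overlap, and the level after knock-down was 77.3% of the control mean (log2 fold change -0.37, SE 0.0679, 95% interval -0.53 to -0.20, adjusted p = 0.00870). JMJD1C, which has been linked to the self-renewal of leukaemia cells with KMT2A fusions, stood at 379, 413 and 369 CPM in shCONTROL and at 372, 368 and 331 CPM in shBCLAF1. The groups overlapped, and the log2 fold change of -0.11 (95% interval -0.27 to 0.05) did not pass the test (adjusted p = 0.258). MBNL1 stood at 836, 776 and 795 CPM in shCONTROL and at 870, 861 and 701 CPM in shBCLAF1. Replicate 3 of shBCLAF1 was the lowest of the 6 libraries and the other 2 the highest, so the log2 fold change of 0.02 (95% interval -0.20 to 0.24, adjusted p = 0.896) came with a wide spread and took the other sign without shBCLAF1 replicate 1 (-0.03) or replicate 2 (-0.03). Replicate 3 of shBCLAF1 was the lowest library of its group for all 9 members; without it LMO2, MEF2C, SATB1, CDK6, MYB and RUNX2 were called in the same direction.

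**Figure D2:**
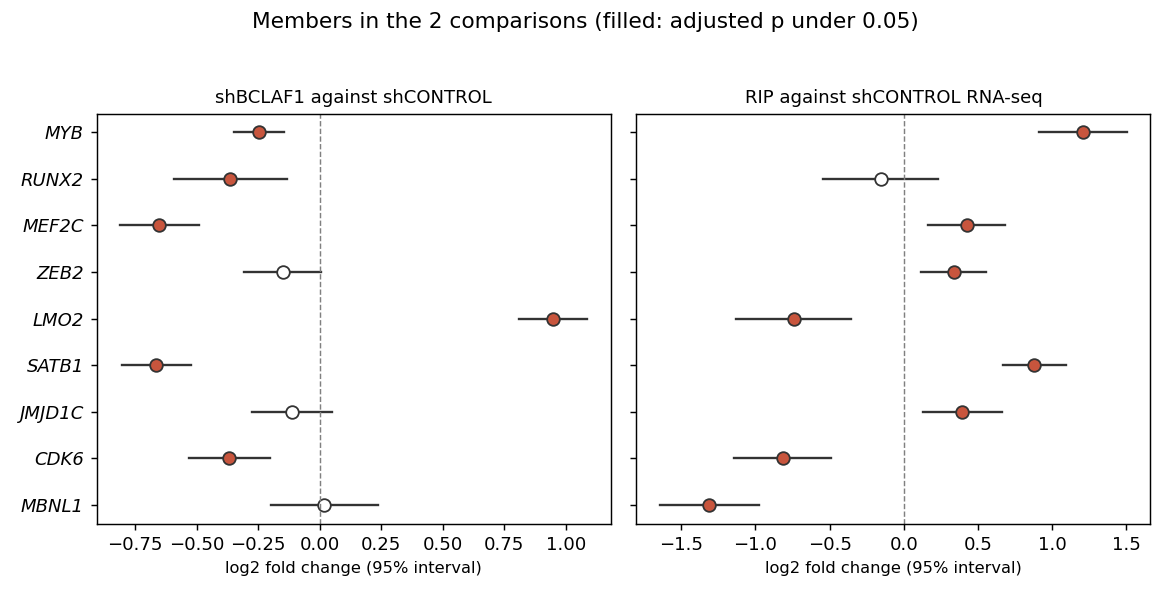
Log2 fold change of each member (x axis) with its 95% interval, for shBCLAF1 against shCONTROL (left) and RIP against shCONTROL RNA-seq (right); filled points passed the test at an adjusted p under 0.05. LMO2 and MBNL1 stand out on the left and right, at 0.95 and -1.31, and MYB reaches 1.21 in the RIP.

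In the RIP libraries, 5 members had a larger share of the RNA than in shCONTROL RNA-seq: MYB, SATB1, MEF2C, JMJD1C and ZEB2. MBNL1, CDK6 and LMO2 had a smaller share, and RUNX2 did not pass the test. Of the 16727 genes tested, 24.6% were higher and 24.7% were lower, so a call in either direction was common. When a change of 1 or more on the log2 scale was required as well, MYB was the 1 member enriched and MBNL1 the 1 depleted, beside 11.0% and 13.5% of all genes tested. The members' median was 0.34, beside -0.05 over all genes. Scaling by total counts in place of TMM lowered the median of all genes to -0.16. The maturation markers summed to 156 to 198 CPM in RIP, or 121 to 146 CPM without LYZ, with 5 of 10 tested lower and 1 higher, and their part in these differences was not tested.

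MYB stood at 1442, 1248 and 1607 CPM in RIP, 232% of its level in shCONTROL RNA-seq, and the lowest RIP library was above every RNA-seq library. Its log2 fold change was 1.21 (SE 0.122, 95% interval 0.91 to 1.51, adjusted p = 7.13e-04). SATB1 followed, with 900, 847 and 879 CPM in RIP and a log2 fold change of 0.88 (SE 0.0861, 95% interval 0.67 to 1.09, adjusted p = 6.39e-04). Its 3 RIP libraries lay closer together, at 875 ± 26.6 CPM (SD, n = 3), than those of MYB, at 1432 ± 179.4 CPM (SD, n = 3).

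MEF2C, JMJD1C and ZEB2 were higher by less. MEF2C stood at 458, 518 and 554 CPM in RIP (log2 fold change 0.43, SE 0.106, adjusted p = 0.0176). JMJD1C stood at 573, 483 and 480 CPM (0.40, SE 0.108, adjusted p = 0.0244), and ZEB2 at 633, 556 and 580 CPM (0.34, SE 0.090, adjusted p = 0.0224). All of these RIP libraries were above all shCONTROL libraries of the same gene. None of the 3 calls survived leaving out any 1 shCONTROL library: the adjusted p was 0.0676, 0.0618 and 0.0845 for MEF2C without shCONTROL replicate 1, 2 and 3, 0.0962, 0.0610 and 0.106 for JMJD1C, and 0.0926, 0.0929 and 0.0932 for ZEB2, which left 2 members called higher each time. The log2 fold changes without 1 shCONTROL library were 0.395 to 0.443 for MEF2C, 0.364 to 0.437 for JMJD1C and 0.332 to 0.34 for ZEB2. Over all genes tested, 4107 were higher with every library in the fit, and 3116 to 3146 without 1 shCONTROL library. With scaling by total counts JMJD1C (adjusted p = 0.132) and ZEB2 (0.148) also lost the call.

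MBNL1 had the lowest recovery, with 384, 281 and 312 CPM in RIP, 40.6% of its level in shCONTROL. Its log2 fold change was -1.31 (SE 0.137, 95% interval -1.64 to -0.98, adjusted p = 7.86e-04), although its level had not differed detectably after the knock-down. CDK6 stood at 529, 558 and 424 CPM in RIP, below all RNA-seq libraries of both kinds (log2 fold change -0.81, SE 0.134, 95% interval -1.14 to -0.49, adjusted p = 0.00371). LMO2 stood at 48.3, 55.0 and 37.0 CPM in RIP, also below all 6 RNA-seq libraries (log2 fold change -0.74, SE 0.159, 95% interval -1.13 to -0.35, adjusted p = 0.00999). RUNX2 stood at 133, 123 and 90.0 CPM, and these values overlapped with both RNA-seq groups (log2 fold change -0.15, 95% interval -0.54 to 0.23, adjusted p = 0.453).

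The order of the 3 groups thus differed between members. For MYB, MEF2C, SATB1 and ZEB2 it was RIP above shCONTROL above shBCLAF1, with no overlap between neighbours, although the gap between the RNA-seq groups of ZEB2 did not pass the test. LMO2 had the opposite order, shBCLAF1 above shCONTROL above RIP, with no overlap. CDK6 went from shCONTROL through shBCLAF1 to RIP, each below the last with no overlap. For JMJD1C and MBNL1 the RNA-seq groups overlapped and RIP lay above them and below them, respectively. Both comparisons use the same shCONTROL libraries, so their values stand side by side and are not 2 independent readings.

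The members are long genes. RefSeq spans ran from 33.5 kb for LMO2 and 37.9 kb for MYB to 354.7 kb for JMJD1C, and 7 of 9 spanned over 100 kb, beside 16.2% of the protein-coding genes tested. SATB1, at 100.2 kb, was barely over that limit. Recovery in RIP varied with span over all protein-coding genes: the median log2 fold change was -0.32 for the 2345 genes under 10 kb, -0.06 from 10 to 30 kb, 0.10 from 30 to 100 kb and 0.40 for the 1791 genes over 100 kb. Set against genes of its own span class, MEF2C was higher than 51.6% of them, JMJD1C than 50% and ZEB2 than 46.7%, close to the middle of the class. SATB1 was higher than 76.8% and MYB, in the class of 30 to 100 kb, than 92.1%. MBNL1 was higher than 2.46% of its class, CDK6 than 8.04%, LMO2 than 17.6% and RUNX2 than 25.3%. Span here is the distance on the genome and not the length of the RNA. In the knock-down the medians of the 4 span classes lay between -0.02 and 0.02. LMO2 was there above 97.4% of its class, while SATB1 was above 9.64% and MEF2C above 9.86% of theirs.

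**Figure D3:**
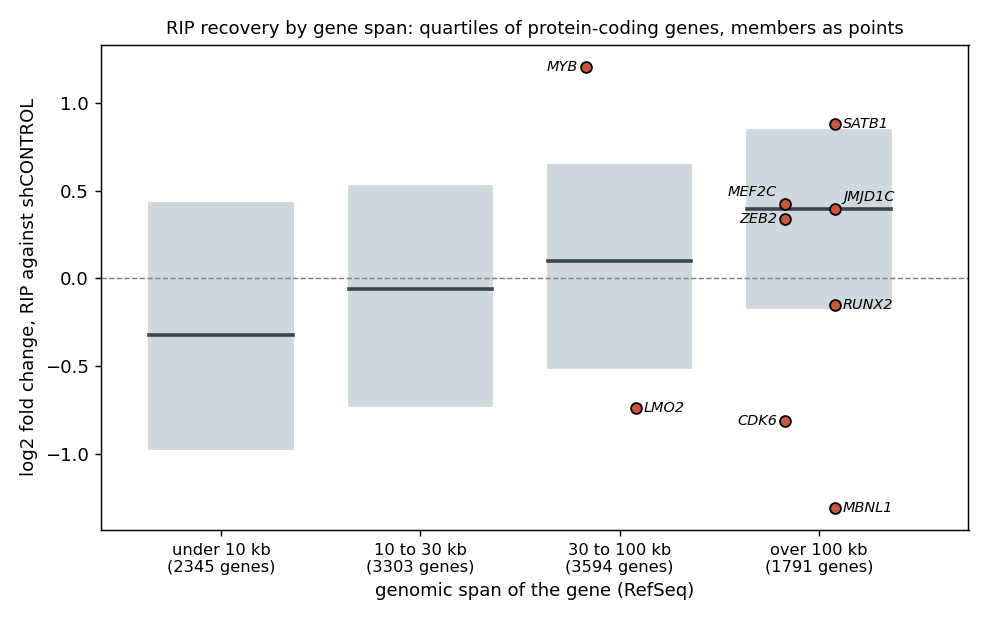
Log2 fold change of RIP against shCONTROL RNA-seq (y axis) by genomic span of the gene (x axis, 4 classes). Boxes run from the first to the third quartile of all protein-coding genes tested in a class, with the median as a line, and points are the members. The medians go from -0.32 to 0.40, and MEF2C, JMJD1C and ZEB2 lie near the line of their class. MBNL1, CDK6 and LMO2 lie below the box of their class, and MYB and SATB1 lie above it.

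Of 10 antisense RNA genes named after a member, 8 had a row in the table, and together they summed to 78.4 to 132 CPM in shCONTROL. After the knock-down 4 of the 8 fell and 0 rose: MEF2C-AS1, MEF2C-AS2, CDK6-AS1 and SATB1-AS1, each named after a member that fell. Over all genes tested, 16.9% fell. MEF2C-AS1 stood at 8.36, 8.56 and 10.1 CPM in shCONTROL and at 4.37, 3.49 and 4.42 CPM in shBCLAF1, a change of -1.13 on the log2 scale (SE 0.140, adjusted p = 0.00204). SATB1-AS1 stood at 15.6, 17.8 and 16.4 CPM against 12.5, 10.9 and 12.9 CPM (log2 fold change -0.45, SE 0.0965, adjusted p = 0.0149). MEF2C-AS2 changed by -0.63 (SE 0.121, adjusted p = 0.0102) and CDK6-AS1 by -0.67 (SE 0.132, adjusted p = 0.0109) on the log2 scale. JMJD1C-AS1 (0.17), ZEB2-AS1 (0.02), MYB-AS1 (-0.17) and MBNL1-AS1 (-0.02) did not pass the test. In one fit of all 9 libraries MEF2C-AS2 (adjusted p = 0.216) and SATB1-AS1 (0.0833) lost their calls, and SATB1-AS1 also lost its call with the replicate block (0.0553). The values of JMJD1C-AS1, ZEB2-AS1 and MBNL1-AS1 took the other sign when 1 library was left out, and MBNL1-AS1 ranged from 14.7 to 66.8 CPM within shCONTROL alone.

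In the RIP 3 of the 8 antisense genes were lower and 1 was higher, beside 24.7% and 24.6% of all genes tested. SATB1-AS1 was lower, with 9.37, 7.85 and 6.46 CPM (log2 fold change -1.08, SE 0.164, adjusted p = 0.00282), while SATB1 was higher. MEF2C-AS2 was also lower (-1.14, SE 0.340, adjusted p = 0.0333), while MEF2C was higher, and CDK6-AS1 (-0.68, SE 0.197, adjusted p = 0.0311) was lower as CDK6 was. JMJD1C-AS1 was higher (0.69, SE 0.153, adjusted p = 0.0112), as JMJD1C was. MEF2C-AS1 (-0.10), ZEB2-AS1 (0.32), MYB-AS1 (-1.22) and MBNL1-AS1 (-1.67) did not pass the test, but their values depended on single libraries. Without RIP replicate 1, MYB-AS1 stood at -2.17 (adjusted p = 0.00278) and MEF2C-AS1 at -0.55 (0.0402), while MYB-AS1 stood at -0.84 without RIP replicate 3. MBNL1-AS1 stood at -0.59 without shCONTROL replicate 2 and at -2.19 without RIP replicate 3, and passed with DESeq2's Wald test (0.0373). The calls of MEF2C-AS2 and CDK6-AS1 did not survive leaving out shCONTROL replicate 1, 2 or 3 (adjusted p = 0.0800, 0.0831 and 0.0965 for MEF2C-AS2, and 0.0730, 0.106 and 0.0898 for CDK6-AS1). MEF2C-AS2 also lost the call without RIP replicate 2 (0.0833) and CDK6-AS1 without RIP replicate 1 (0.0579). The libraries were made with a kit that keeps the strand, but the strand setting of the counting is not given in the sources used here, so reads of a gene and of its antisense partner cannot be told apart with certainty.

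**Figure D4:**
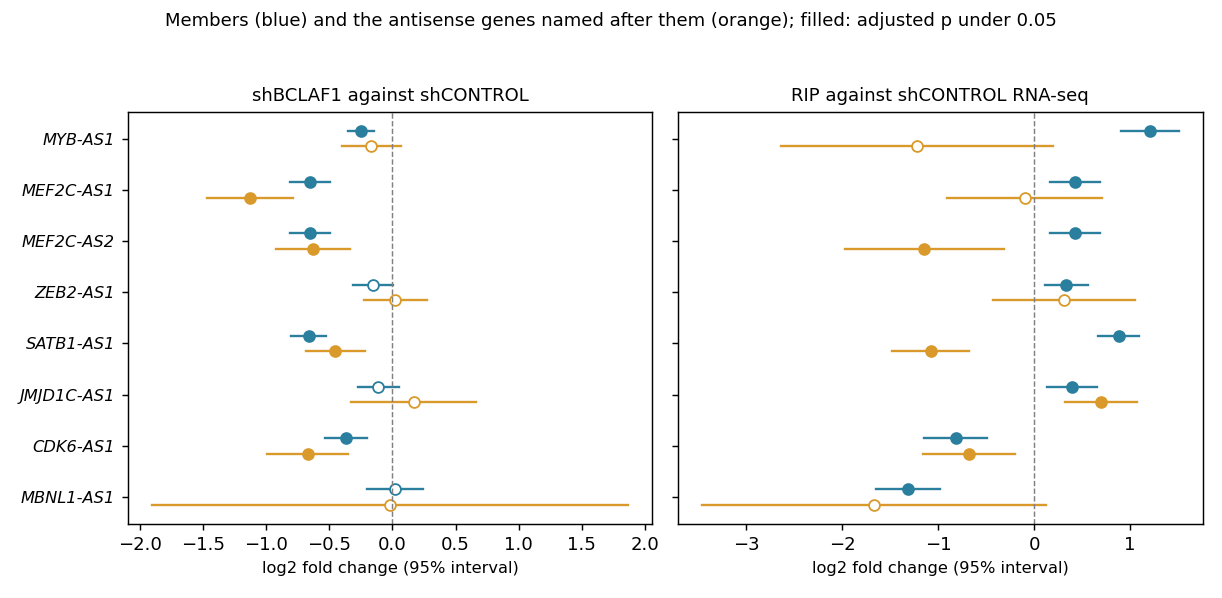
Log2 fold change with 95% interval (x axis) of 8 antisense RNA genes (orange) and the member each is named after (blue), for the knock-down (left) and the RIP (right); filled points passed the test. On the left the 4 filled orange points lie on the side of their member; on the right SATB1-AS1 at -1.08 and MEF2C-AS2 at -1.14 lie on the side opposite to theirs.

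A further 20 genes described as bound or raised by KMT2A fusions, outside the homeobox family, moved in both directions after the knock-down. Of 17 tested, 6 rose and 7 fell, with a median log2 fold change of -0.08. Over all genes tested, 15.5% rose and 16.9% fell. The falls were the larger: BCL11A, a zinc-finger repressor of globin genes, by -1.05 (SE 0.0689, adjusted p = 2.81e-04), MSI2, an RNA-binding protein of stem cells, by -0.96 (SE 0.0485, adjusted p = 1.64e-04), and the survival protein BCL2 by -0.84 (SE 0.0470, adjusted p = 2.06e-04). The leading rises were CDKN2C, an inhibitor of CDK4 and CDK6, by 0.32, the phosphatase UBASH3B by 0.30 and the G protein GNAQ by 0.28. In the RIP 8 of the 17 were higher and 4 lower, beside 24.6% and 24.7% of all genes tested. ZNF521 led at 1.43 (SE 0.101, adjusted p = 2.96e-04), followed by the RNA-binding protein IGF2BP2 at 1.27 and the E-protein TCF4 at 1.06 (adjusted p = 0.0316), and MSI2 (-1.08), UBASH3B (-0.85) and CDKN2C (-0.62) were the lowest. TCF4 no longer passed when any shCONTROL library was dropped (replicate 1, 0.0529; replicate 2, 0.0700; replicate 3, 0.0688), nor without RIP replicate 1 (0.0790) or 3 (0.0609).

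Of 17 paralogues of the members, 15 were tested, and after the knock-down 5 fell, 1 rose and 9 did not pass the test. Over all genes tested, 16.9% fell and 15.5% rose. MBNL3, the paralogue of MBNL1, went from 27.2 ± 1.67 to 9.41 ± 1.04 CPM (SD, n = 3; log2 fold change -1.52, SE 0.103, adjusted p = 3.13e-04), while MBNL1 itself gave no call. In one fit of all 9 libraries MBNL3 lost its call (adjusted p = 0.386). LMO4 fell by 0.39 on the log2 scale, where LMO2 rose. KDM3B, a demethylase related to JMJD1C, was higher by 0.16 (adjusted p = 0.0178), a call that was lost without shBCLAF1 replicate 1 (0.0503) or 2 (0.0641). In the RIP 4 of 15 were higher and 2 lower, beside 24.6% and 24.7% of all genes tested. MYBL1 (1.74, SE 0.233, adjusted p = 0.00178) and MYBL2 (1.32, SE 0.180, adjusted p = 0.00189) were higher, as MYB was, and so was KDM3A (1.40, SE 0.102, adjusted p = 3.06e-04). CDK4 was lower (-0.85, SE 0.118, adjusted p = 0.00207), as CDK6 was. LMO4 was lower too (-0.58, adjusted p = 0.0143), a call lost without shCONTROL replicate 1 (0.0505) or 3 (0.0546).

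Proteins that bind the members' products or act on them were also split. After the knock-down 8 of 27 tested rose, 9 fell and 10 did not pass the test. Over all genes tested, 15.5% rose and 16.9% fell. For CDK6, the cyclins that activate it parted: CCND2 fell by 0.71 (SE 0.0420, adjusted p = 2.34e-04) and CCND1 by 0.58 on the log2 scale, while CCND3 rose by 0.42 (SE 0.0487, adjusted p = 0.00161). The CDK inhibitor CDKN1A rose by 0.37, and RB1, the substrate of CDK6, fell by 0.59 (SE 0.0791, adjusted p = 0.00263). HDAC4, a class IIa deacetylase that represses MEF2 factors, rose by 0.78 (SE 0.0817, adjusted p = 0.00115). Of the other deacetylases of that class in the list, named after their values were seen, HDAC5 fell by 0.35 (adjusted p = 0.00186), and HDAC7 (0.09) and HDAC9 (-0.31) did not pass the test. In the RIP 9 of 28 tested partners were higher and 8 lower, beside 24.6% and 24.7% of all genes tested. EP300, a coactivator of MYB, was at 2.14 (SE 0.323, adjusted p = 0.00272) and HDAC1 at 1.83 (SE 0.275, adjusted p = 0.00267), both on wide spreads, with 1223 ± 537 and 509 ± 202.8 CPM in RIP (SD, n = 3). SIK3, a kinase that keeps class IIa deacetylases out of the nucleus, was at 1.03 (adjusted p = 0.0139), a call lost without shCONTROL replicate 2 (0.0545). CCND3 (-1.72, SE 0.0902, adjusted p = 2.09e-04), RB1 (-1.10, SE 0.0873, adjusted p = 3.68e-04) and the inhibitor CDKN2D (-1.05, SE 0.161, adjusted p = 0.00291) were the lowest. CDKN2C stands in this list and in that of the other targets, and RUNX1 in the latter and among the paralogues.

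Across the 9 libraries, the gene whose log2 CPM followed each member most closely was sought among the 11043 named genes whose count reached 50 in each library. These correlations rest on 3 groups that differ in preparation, so many genes score high, and they are given as descriptions. SATB1 was followed most closely by BCLAF1 itself (Pearson r = 0.9986), the gene under the hairpin, and r was above 0.95 for 467 genes. MYB was followed by ATL2 (0.9995), MBNL1 by SDHAF3 (0.9978), LMO2 by FAM20B (0.9964) and MEF2C by the pseudogene NPM1P6 (0.9927), with ANGPT1 equal to it at that precision. CDK6 was followed by SLAIN2 (0.9923), ZEB2 by ZFPL1 (0.9865) and JMJD1C by GORAB (0.9847). Over the 6 RNA-seq libraries alone, a choice made after the data were seen, r for the same pairs was lowest for JMJD1C and GORAB (0.859) and highest, at 0.998, for SATB1 and BCLAF1 and for MEF2C and NPM1P6, with 0.997 for LMO2 and FAM20B. RUNX2 differed in having 1 gene above 0.95, STX6 (0.9736), against 63 to 971 for the other members. Among the members themselves, r was 0.96 between SATB1 and MEF2C, -0.97 between LMO2 and both MEF2C and SATB1, and 0.10 between RUNX2 and MYB.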

How the data were processed

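MOLM-13 RNA was sequenced as stranded, rRNA-depleted total RNA with 2 reads of 50 bases per fragment, per the labels' protocols, and all libraries carry 1 batch label. The deposited table holds estimated counts per gene; the submitters' processing notes name STAR 2.7.11b, StringTie 2.2.3 and hg38, while the annotation, the counting and its strand setting are not given in the sources used here. The values are whole numbers as deposited by the authors and were used as such. The 1 entry that names no gene (2.18% to 3.75% of counts, with a value in 8 of 9 libraries) was left out. The floor of 3 counts covers counting error only.

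Each comparison was fitted on its own 6 libraries with edgeR 4.0.16 in R 4.3.3 (filterByExpr, TMM scaling, quasi-likelihood F-test, prior count 2, group as the only term), with Benjamini-Hochberg adjustment over all genes tested and a threshold of 0.05. The script was tested on simulated data. SEs are the size of the log2 fold change over the square root of F, and intervals are 95%. DESeq2 1.42.0, other scalings, no filter, a block, a joint fit and leaving out each library were the alternatives. The members and lists were chosen with earlier results of these data known. Text names all members, BCLAF1, the antisense genes, up to 3 called genes per list, comparison and direction with a mean of at least 50 counts (largest change first), and the gene most like each member. Of the genes this rule picks, 1 is not reported here. Of the symbols tested in the RIP, 98.6% matched RefSeq's table (GRCh38.p14), used for spans and sequences.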

Additional observations from a re-analysis of the deposited data

How the results depend on the processing

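LMO2, MEF2C and SATB1 in the knock-down, and MYB, SATB1, MBNL1, CDK6 and LMO2 in the RIP, kept their direction and their call under all alternatives run. In the knock-down 5 members were called lower, 4 to 5 with 1 library left out, and 2 in one fit of all 9 libraries, where CDK6, MYB and RUNX2 lost the call, as did CCND2, CDKN1A, GNAQ, UBASH3B, LMO4, KDM3B, MBNL3, MEF2C-AS2 and SATB1-AS1 (adjusted p = 0.0644 for LMO4 to 0.569 for KDM3B). Over all genes tested in the knock-down, 2859 were lower, and 2171 to 2730 with 1 library left out. In the RIP 5 members were called higher, 2 to 5 with 1 library left out, and 3 with total counts, where TCF4 also lost its call (0.0547). Over all genes tested in the RIP, 4107 were higher, 3116 to 4222 with 1 library left out, and 3403 with total counts. Deviations of same-numbered libraries correlated at -0.017 to 0.108 over 11684 genes, and those of differently numbered libraries at -0.104 to 0.044. These weak correlations do not settle whether the replicate numbers mark a pairing. With the number as a replicate block 2 members were called higher in the RIP, beside 3244 of all genes tested. MEF2C (adjusted p = 0.0681), JMJD1C (0.0748), ZEB2 (0.0853), MEF2C-AS2 (0.0613) and CDK6-AS1 (0.0880) lost the call there, and SATB1-AS1 lost its call in the knock-down (0.0553). With the mean of both RNA-seq groups as reference, 2 members were enriched and 2 depleted, RUNX2 stood at 0.035, MEF2C-AS1 at 0.478, and CDK6-AS1 lost its call (0.114). Over all genes, 5089 were higher and 5070 lower with that reference, counting changes of any size. One fit of all 9 libraries in the knock-down gave 1129 genes higher and 1318 lower. The cause of these changes was not tested.

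Uncalled values near 0 changed sign. With 1 library left out, the knock-down log2 fold change ran from -0.034 to 0.115 for MBNL1, -0.029 to 0.322 for JMJD1C-AS1, -0.041 to 0.081 for ZEB2-AS1 and -0.862 to 1.071 for MBNL1-AS1, which was 0.019 with total counts and 0.11 with the replicate block. In the RIP it ran from -0.264 to 0.001 for RUNX2, -0.549 to 0.112 for MEF2C-AS1 and -0.069 to 0.55 for ZEB2-AS1. MEF2C-AS1, MEF2C-AS2, CDK6-AS1 and MYB-AS1 had means under 10 CPM in every group. In that order, the SD between RIP libraries was 48%, 44.7%, 18.3% and 86.3% of the mean. Between shCONTROL libraries it was 10.7%, 6.58%, 7.9% and 3.89%. The part of depth in this spread was not tested.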
